A study of Danio rerio with 2 samples.

Results

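The homeobox and T-box genes that give cells of a body part their position were read from 2 Affymetrix zebrafish arrays, each hybridised with RNA of 1 pigment cell preparation from adult fins. Members were all probe sets of the deposited table with 1 gene symbol that begins like a hox, msx, dlx, pitx, meis, pbx, irx, alx, prrx, lhx, nkx, tbx, engrailed (en1 or en2), pax or sine oculis (six2a and its kin) gene, with pax7a left out. There were 162 such probe sets, for 130 genes, among 10795 probe sets with 1 symbol, for 8793 genes. No probe set named for a pitx or alx gene was among them. The letters alone also took in 5 probe sets of genes that encode no homeobox, paired box or T-box protein: paxbp1 and paxip1, partners of Pax proteins, pbxip1a and pbxip1b, partners of Pbx proteins, and tbxas1, which makes thromboxane. They are kept in the counts and given apart.

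Both preparations came from caudal and anal fins of wild-type zebrafish over 2 months old, bought in a pet shop, and the protocol names 1000 fish. Cells were freed with trypsin and collagenase and separated by centrifugation or a cell sorter, and the labels do not tie a method to a sample. The groups are the array titled melanophores (black cells that make melanin) and the array titled xanthophores (yellow to orange cells with pteridines and carotenoids), with 1 array each. The source name and cell type field of the first sample say xanthophores and those of the second say melanophores, against both titles. The arrays are therefore called Mel-titled and Xan-titled, and every ratio is Mel-titled over Xan-titled.

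Hox genes lie in clusters and are numbered by paralog group, from the anterior end of the body (low numbers) to the posterior end (high numbers). Their proteins bind DNA together with Meis and Pbx proteins. In fins and limbs, the posterior Hox genes pattern the skeleton from base to tip, Tbx5 and Tbx4 mark pectoral and pelvic appendages, Prrx1 marks the mesenchyme, and Msx and Dlx genes act in the growing edge. Adult fin cells keep part of such a position code.

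Signals are MAS 5.0 intensities on a linear scale, and no detection calls were used here. The median signal over the 15502 transcript probe sets was 47.2 on the Mel-titled and 43.5 on the Xan-titled array. A member above an array's median on at least 1 array is called measured. Signals under the median were raised to it before a ratio was taken, so a ratio with such a signal is a lower bound. The median is not a detection limit. With 1 array a group, no difference has a replicate check and no test was made. The one error at hand is technical and partial. Measured probe sets of the same gene differed in log2 ratio with an SD of 0.46 (598 genes), a factor of 1.38. Errors that all probe sets of an array share, such as that of its scaling, are not in it.

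Markers in the same tables describe the preparations. Of 5 xanthophore markers with a probe set, 4 were 2-fold or more brighter on the Mel-titled array, gch2, an enzyme of pteridine synthesis, among them at 803.9 against 140.5. The melanin enzyme gene dct stood at 50.1 on the Mel-titled and 590.1 on the Xan-titled array, and tyr at 48.4 and 39.2. Thus dct and all 5 xanthophore markers run against the titles, though csf1ra and pax7a (at least 1.99-fold) exceeded only the median of the Mel-titled array. The gene tyr runs with the titles, at least 1.11-fold towards the Mel-titled array. Its signal there is close to the median of 47.2, and the bound is under the technical factor of 1.38. Of 11 connective tissue and bone markers with a probe set, 9 were measured, 8 of them at 2-fold or more towards the Xan-titled array. Their summed signal was 5269 on the Mel-titled and 21512 on the Xan-titled array, while the osteoblast regulators sp7 and runx2b lay under both medians. Of 9 keratinocyte markers 8 were measured, with 3 at 2-fold or more towards the Mel-titled array and a summed signal of 22312 there against 19378. Of 5 endothelial markers 4 were measured, with 3 towards the Mel-titled array and a summed signal of 3424 there against 847.4. Of 4 erythrocyte markers 2 were measured, both at 2-fold or more towards the Xan-titled array (hbaa1, a globin gene, at 24.9 on the Mel-titled and 956.5 on the Xan-titled array). Of 8 leukocyte markers 4 were measured, with 2 at 2-fold or more towards the Mel-titled and 1 towards the Xan-titled array. The part that other cell types had in the values below was not tested. In such bulk samples, fewer cells of a type and less RNA per cell cannot be told apart.

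Most probe sets of position genes lay under both medians. On the Mel-titled array 30 of the 162 members (18.5%) exceeded the median, and on the Xan-titled array 39 (24.1%), where 53.3% and 53.6% of all 10795 named probe sets did. On either array it was 41 members (25.3%), for 39 genes, against 57.7% of all named probe sets. Of these 41, 28 exceeded both medians, 2 only that of the Mel-titled array and 11 only that of the Xan-titled array. The other 121 probe sets lay under both, with highest signals of 46.0 and 43.4 and medians of 9.2 and 11.9. All 5 probe sets taken by letters alone exceeded both medians, so of the 157 probe sets of true family members 25 exceeded the median on the Mel-titled and 34 on the Xan-titled array.

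The median separates some close values. Just above it, hoxb3a had 47.3 on the Mel-titled and 44.3 on the Xan-titled array, and paxbp1 had 44.0 on the Xan-titled array. Just under it, msx2b had 46.0 and hoxa9b 45.7 on the Mel-titled array, and hoxa9a had 43.4 and hoxb5a 43.3 on the Xan-titled array.

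The families differed in how many probe sets were measured. Both prrx probe sets were, as were 4 of 8 dlx, 4 of 6 pbx, 3 of 7 msx, 2 of 6 meis, 13 of 59 hox, 2 of 7 irx, 3 of 15 tbx, 1 of 12 pax, 1 of 11 sine oculis and 1 of 10 lhx. None of the 4 engrailed and none of the 10 nkx probe sets was measured. The highest engrailed signal was 26.6 (en1b, Mel-titled array). Engrailed genes mark the ventral ectoderm of paired appendages and the midbrain to hindbrain border, and Nkx genes act in the ventral neural tube, the heart and the thyroid.

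**Figure D1:**
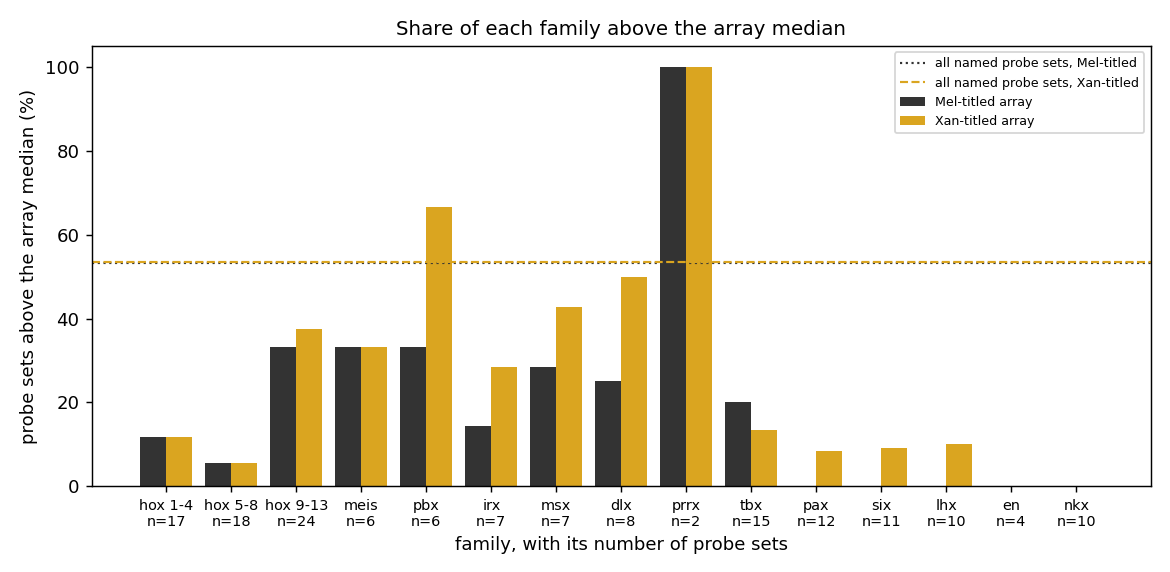
Bars give the percentage of each family's probe sets whose signal exceeded the median of the Mel-titled (dark) and the Xan-titled array (yellow), with the number of probe sets under each name; the horizontal lines at 53.3% and 53.6% give the same share over all named probe sets. Only prrx, and pbx on the Xan-titled array, lie above the lines.

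The T-box genes of paired fins lay under the medians in these caudal and anal fin cells. For tbx5a, the pectoral fin gene, 2 probe sets had 18.1 and 2.5 on the Mel-titled and 4.7 and 14.4 on the Xan-titled array. For tbx4, the pelvic fin gene, signals were 9.2 on the Mel-titled and 18.2 on the Xan-titled array. The genes tbx15 and tbx18, and the mesoderm genes tbx16 and tbxta (Brachyury), lay under both medians too.

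The T-box repressor gene tbx2b had 805.4 on the Mel-titled and 806.9 on the Xan-titled array. Its log2 ratio was 0.00 as deposited, between -0.56 (equal medians of bright probe sets) and 0.50 (ribosomal protein genes set equal) under the other scalings. Its close relative tbx3a had 145.3 on the Mel-titled and 252.1 on the Xan-titled array, a log2 ratio of -0.79, which passes 2-fold towards the Xan-titled array under 4 of the 5 other scalings tried. The pharyngeal arch gene tbx1 had 62.5 on the Mel-titled array and 8.2 on the Xan-titled array, under the median, so it was at least 1.44-fold brighter on the Mel-titled array and could point only that way.

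Among hox genes, posterior groups made up most of what was measured. Of 24 probe sets for groups 9 to 13, 10 were measured (41.7%), against 1 of 18 for groups 5 to 8 and 2 of 17 for groups 1 to 4. All 3 shares lay under the 57.7% of all named probe sets. Groups 1, 2, 5, 6, 7 and 12 had no measured probe set. By group, 2 of 7 probe sets of group 9 were measured, 2 of 6 of group 10, 4 of 7 of group 11, 0 of 1 of group 12 and 2 of 3 of group 13. By cluster letter, 4 of 14 hoxa, 2 of 21 hoxb, 4 of 16 hoxc and 3 of 8 hoxd probe sets were measured. These are counts on the array's own choice of probe sets, and not every hox gene had one.

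**Figure D2:**
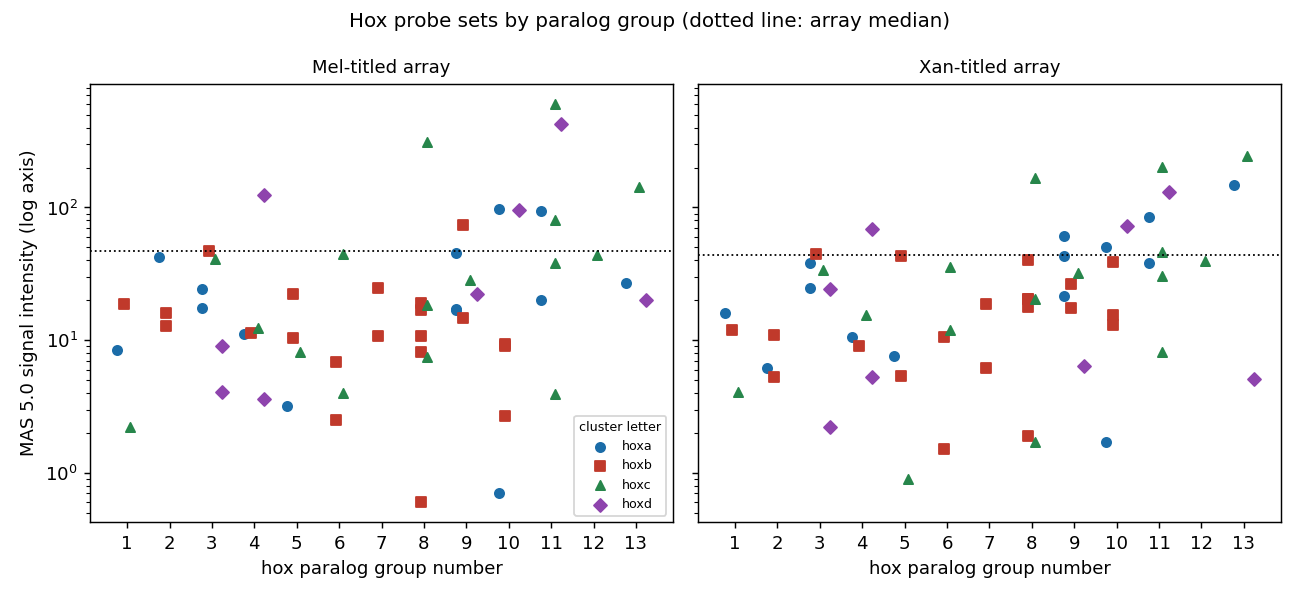
Each point is a hox probe set, placed by paralog group number (x axis) and MAS 5.0 signal on a log axis (y axis), on the Mel-titled (left) and the Xan-titled array (right), with colour and shape for the cluster letter and a dotted line at the array median. Points above the line sit mostly at groups 9 to 13; at lower numbers hoxc8a, hoxd4a and hoxb3a lie above it.

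Group 11 held both hox genes at 2-fold or more towards the Mel-titled array. By probe set these were 2 of the 13 measured for hox (15.4%), near the 15.0% over all measured named probe sets. The brightest probe set of hoxc11a had 606.5 on the Mel-titled and 202.9 on the Xan-titled array, a 2.99-fold difference. The next probe set had 81.1 and 45.9 (1.77-fold), and the last 3.9 and 8.1. The 2 measured probe sets run the same way. The other gene, hoxd11a, had 423.7 on the Mel-titled and 131.4 on the Xan-titled array, or 3.22-fold. Both hoxd11a and the brightest probe set of hoxc11a kept 2-fold under every scaling and floor tried. The next hoxc11a probe set had a log2 ratio of 0.82 as deposited and 0.27 with equal medians of bright probe sets.

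The further measured genes of groups 10 and 11 lay within 2-fold. Signals of hoxa10b were 97.8 on the Mel-titled and 50.6 on the Xan-titled array (0.7 and 1.7 by its other probe set), those of hoxd10a 94.9 and 72.3, and those of hoxa11b 94.6 and 84.7. All 6 measured probe sets of the 2 groups, for 5 genes, had the higher signal on the Mel-titled array as deposited. Of all 6230 measured named probe sets, 4329 had a ratio towards that array. The median log2 ratio of the 6 was 0.89 (0.34 over all measured named probe sets). The direction of hoxa11b turned with spike-in scaling, quantile normalization, equal bright medians and the lowess fit, and that of hoxd10a with equal bright medians.

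The measured genes of group 13, the most posterior one, had their higher signal on the Xan-titled array. Hox13 genes are needed for fin rays in zebrafish. Signals of hoxa13b were 27.0 on the Mel-titled array, under its median, and 146.7 on the Xan-titled array, at least 3.11-fold (at least 1.24-fold with a 65th percentile floor). Signals of hoxc13a were 141.4 on the Mel-titled and 244.7 on the Xan-titled array, 1.73-fold. As hoxa13b was measured through the Xan-titled array alone, it could point only that way. The direction of hoxc13a held under every scaling tried, with a log2 ratio of -0.29 when ribosomal protein genes are set equal. The other gene of the group, hoxd13a, lay under both medians at 20.2 on the Mel-titled and 5.1 on the Xan-titled array. The groups were set side by side after their values were seen.

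Neighbouring hox genes were set side by side, though for some of them the filter fixed the direction. In RefSeq's gene order, hoxa13b, hoxa11b, hoxa10b and hoxa9b follow each other, and all 4 were measured, while the next hox gene of that cluster, hoxa2b, lay under both medians at 42.3 and 6.2. Of the run, hoxa13b was brighter on the Xan-titled array, hoxa11b and hoxa10b on the Mel-titled array (log2 ratios of 0.16, which turns as said above, and 0.95), and hoxa9b, at 45.7 and 60.9, at least 1.29-fold on the Xan-titled array. Both hoxa13b and hoxa9b exceeded only the median of the Xan-titled array, so they could point only that way. The pairs of the run that stand towards different arrays rest on these genes. The bound of hoxa9b is under the technical factor of 1.38, and hoxa9b has no direction when ribosomal protein genes are set equal. In the hoxd cluster, the adjacent pair hoxd10a and hoxd11a was measured and both stood towards the Mel-titled array as deposited, while their neighbour hoxd9a had 22.4 and 6.4.

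Of groups 1 to 8, the measured genes were hoxc8a, hoxd4a and hoxb3a, whose values are given above. Signals of hoxc8a, by its brightest probe set, were 312.9 on the Mel-titled and 167.7 on the Xan-titled array (1.87-fold), but its other 2 probe sets gave 18.5 and 7.5 on the Mel-titled and 20.3 and 1.7 on the Xan-titled array. Signals of hoxd4a, by the brighter probe set, were 124.8 and 68.7 (1.82-fold), and by the other probe set 3.6 and 5.3. In group 9, signals of hoxb9a, by the brighter probe set, were 73.2 on the Mel-titled array and 26.3, under the median, on the Xan-titled array (at least 1.68-fold), and by the other probe set 14.7 and 17.4. The brighter one could point only towards the Mel-titled array. Whether hoxc8a, hoxd4a and hoxb9a count as measured thus depends on which probe set is read.

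Of 25 genes with more than 1 member probe set, 7 had a measured one, and none had all of them measured. Among all 1539 named genes with several probe sets, 1117 had a measured one and 495 of these (44.3%) had all of them measured. A member read as dim from 1 probe set is therefore dim for that probe set and not shown to be so for the gene.

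Of 12 meis and pbx probe sets, for the TALE partners of Hox proteins, 6 were measured and 6 lay under both medians. Signals of meis1b were 499.3 on the Mel-titled and 257.6 on the Xan-titled array (1.94-fold), and those of meis3 were 179.7 and 47.9 (3.75-fold; at least 1.92-fold with a 65th percentile floor). Both had the higher signal on the Mel-titled array under every scaling tried. The probe sets of meis1a, meis2a and meis2b lay under both medians.

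Of the pbx genes, pbx2 had 531.6 on the Mel-titled and 390.6 on the Xan-titled array; its log2 ratio of 0.44 is close to the 0.34 of all measured probe sets and turns with quantile normalization, equal bright medians and the lowess fit. Signals of pbx4 were 75.6 and 44.5 (1.70-fold). For pbx1a (33.9 and 50.4 by its one measured probe set) and pbx3b (16.9 and 51.3), the signal on the Mel-titled array lay under its median, and the bounds towards the Xan-titled array were 1.07-fold and 1.09-fold. Both could point only that way. The Iroquois gene irx3a, of the same homeobox class and active in early limb buds of the mouse, had 49.9 on the Mel-titled and 167.8 on the Xan-titled array, 3.36-fold (at least 1.42-fold with a 65th percentile floor). Signals of irx5a were 12.4 and 45.5, too near the floor for a ratio.

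**Figure D3:**
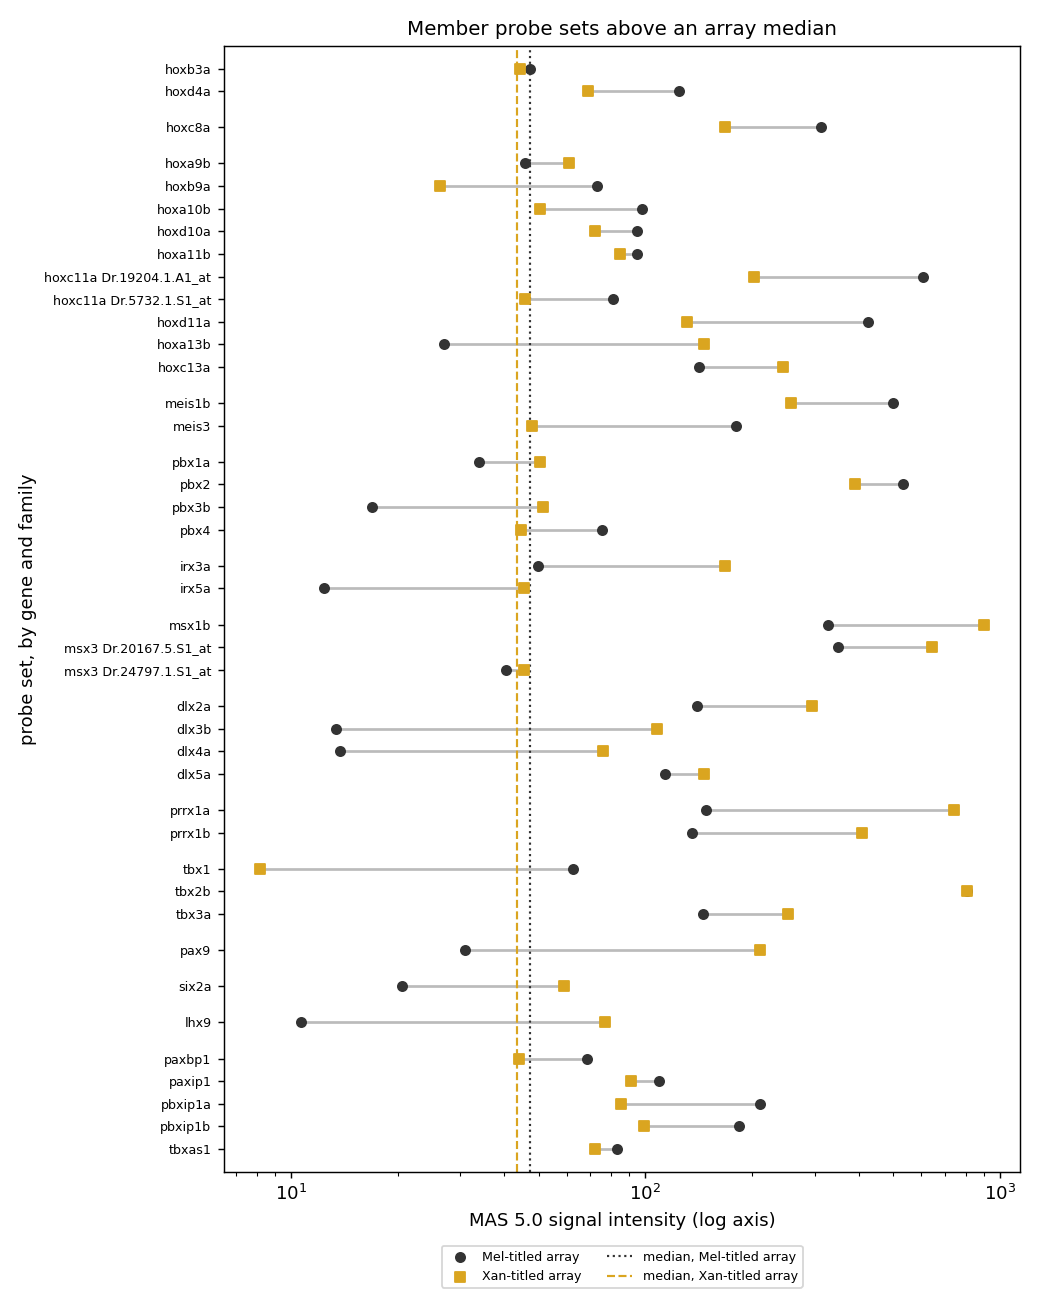
Each line joins the signals of 1 measured probe set on the Mel-titled (dark circle) and the Xan-titled array (yellow square), on a log axis of MAS 5.0 intensity, grouped by family from hox at the top to the probe sets taken by letters alone at the bottom; vertical lines mark the array medians. Circles lie right of squares for hox groups 10 and 11 and meis, and squares right of circles for hox group 13, msx, dlx and prrx; for tbx2b the markers coincide.

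Both prrx1 genes, msx1b, dlx2a and dlx3b were 2-fold or more brighter on the Xan-titled array. Signals of prrx1a, a paired-related homeobox gene of limb and fin mesenchyme, were 148.6 on the Mel-titled and 741.5 on the Xan-titled array, 4.99-fold. Those of its duplicate prrx1b were 135.7 and 408.2, 3.01-fold. Both kept 2-fold under every scaling and floor tried.

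Msx proteins are transcriptional repressors whose genes are active in the distal fin and in its regeneration blastema. Signals of msx1b were 328.2 on the Mel-titled and 903.8 on the Xan-titled array, 2.75-fold (1.95-fold when ribosomal protein genes are set equal). By its brightest probe set, msx3 had 350.1 and 642.5 (1.84-fold). Its other probe sets had 40.4 and 2.4 on the Mel-titled and 45.5 and 2.1 on the Xan-titled array. The probe sets of msx1a, msx2a and msx2b lay under both medians.

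Of the 8 dlx genes, 4 were measured, and all had the higher signal on the Xan-titled array, except that dlx5a turns when ribosomal protein genes are set equal. Of the 4, dlx3b and dlx4a were measured through the Xan-titled array alone, so they could point only that way. Signals of dlx2a were 139.6 on the Mel-titled and 295.0 on the Xan-titled array (2.11-fold), and those of dlx5a 113.9 and 146.4 (1.29-fold). The Mel-titled signals of dlx3b (13.4 against 107.7) and dlx4a (13.8 against 75.8) were under the median, so these differed by at least 2.28-fold and 1.61-fold. When ribosomal protein genes are set equal, the log2 ratios of dlx2a and dlx3b were -0.58 and -0.69, short of 2-fold. Dlx genes sit in convergent pairs: in RefSeq's order dlx1a lies beside dlx2a, dlx4b beside dlx3b and dlx6a beside dlx5a. In each of these 3 pairs 1 gene was measured and the other was not, with 6.0 and 9.5 for dlx1a, 4.9 and 41.4 for dlx4b, and 6.2 and 22.5 for dlx6a on the Mel-titled and Xan-titled arrays.

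Over msx, dlx and prrx together, 9 of 17 probe sets were measured and 5 were 2-fold or more brighter on the Xan-titled array, none on the other, with a median log2 ratio of -1.08; over all named probe sets, 57.7% were measured and 4.13% of those measured stood at 2-fold that way. The 5 became 2 with ribosomal protein genes set equal and 7 with spike-in scaling. Of the 9 measured, 3 exceeded only the median of the Xan-titled array, with dlx3b among them. The other 8 probe sets of the 17 lay under both medians. This grouping was made after the values were seen. Medians of the measured markers lay on the same side for connective tissue and bone (-2.03), erythrocytes (-2.70, 2 genes), melanophores (-1.70, 2 genes) and muscle (-0.20, 1 gene). They lay on the other side for xanthophores (2.52), endothelium (1.78), leukocytes (1.13), Schwann cells and neurons (0.42), keratinocytes (0.21) and iridophores (0.07, 1 gene). What any of these cell types added to the msx, dlx and prrx values was not tested.

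Of the 12 pax probe sets among the members, that of pax9 alone was measured. The gene pax7a, left out of the members, had 86.7 on the Mel-titled array and 23.4, under the median, on the Xan-titled array, at least 1.99-fold. Signals of pax9, which in the mouse acts in teeth, palate and limbs, were 31.0 on the Mel-titled array, under its median, and 209.9 on the Xan-titled array, at least 4.45-fold (at least 1.78-fold with a 65th percentile floor). The neural crest gene pax3a had 8.1 and 2.3. Signals of lhx9, a LIM homeobox gene of early limb buds, were 10.7 and 76.7, at least 1.63-fold towards the Xan-titled array, and those of six2a 20.6 and 58.9, at least 1.25-fold. Like pax9, both exceeded only the median of the Xan-titled array, so they could point only that way. The bound of six2a is under the technical factor of 1.38, and six2a has no direction when ribosomal protein genes are set equal.

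Counted over all 41 measured members, 4 were 2-fold or more brighter on the Mel-titled array (9.76%), where 15.0% of all 6230 measured named probe sets were, and 8 on the Xan-titled array (19.5%), where 4.13% were. The 4 were meis3, hoxd11a, hoxc11a by 1 probe set and, of the letters-only genes, pbxip1a. The 8 were prrx1a, pax9, irx3a, hoxa13b, prrx1b, msx1b, dlx3b and dlx2a. A further 19 lay within 2-fold and 10 have only a bound under 2-fold. By level of brightness, those towards the Xan-titled array were 5 of the 14 members above the 75th percentile of an array (6.26% of such probe sets). Among the other 27 members they were 3 (1.83%): irx3a, hoxa13b and dlx3b. Towards the Mel-titled array it was 2 of the 14 (20.7%) and 2 of the 27 (8.99%). Of the 8, pax9, hoxa13b and dlx3b exceeded only the median of the Xan-titled array, so they could point only that way. At the dimmer level this leaves irx3a alone as a member that could have gone either way. Of all 41 measured members 11 exceeded only that median, against 474 of the 6230 measured named probe sets. The rest of the 8 (prrx1a, prrx1b, irx3a, msx1b and dlx2a) and all 4 towards the Mel-titled array exceeded both medians. Shares over members above both medians alone were not taken.

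The balance of the 2 directions follows the scaling. Spike-in transcripts, added in fixed amounts, were brighter on the Mel-titled array by a median log2 ratio of 0.38 (18 probe sets), and all measured named probe sets had a median of 0.34. After scaling to the spike-ins the members stood at 3 against 13, where 6.39% and 8.23% of all measured named probe sets passed 2-fold, and the split was 14 against 5 with ribosomal protein genes set equal, where 39.9% and 2.26% did. The share of members towards the Xan-titled array was above that of all probe sets under each of the 5 scalings. This share includes members that exceeded only that array's median and could point only that way. The scalings use the same 2 arrays, so they are no separate check of it.

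The median log2 ratio of the 41 was 0.05. It falls on a probe set whose Mel-titled signal is under the median (irx5a and an msx3 probe set share the value), so it carries no direction. Over the 28 members above both medians, the 5 letters-only probe sets included, it was 0.33. Without the letters-only genes, the median log2 ratio over the 36 measured members was -0.05.

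**Figure D4:**
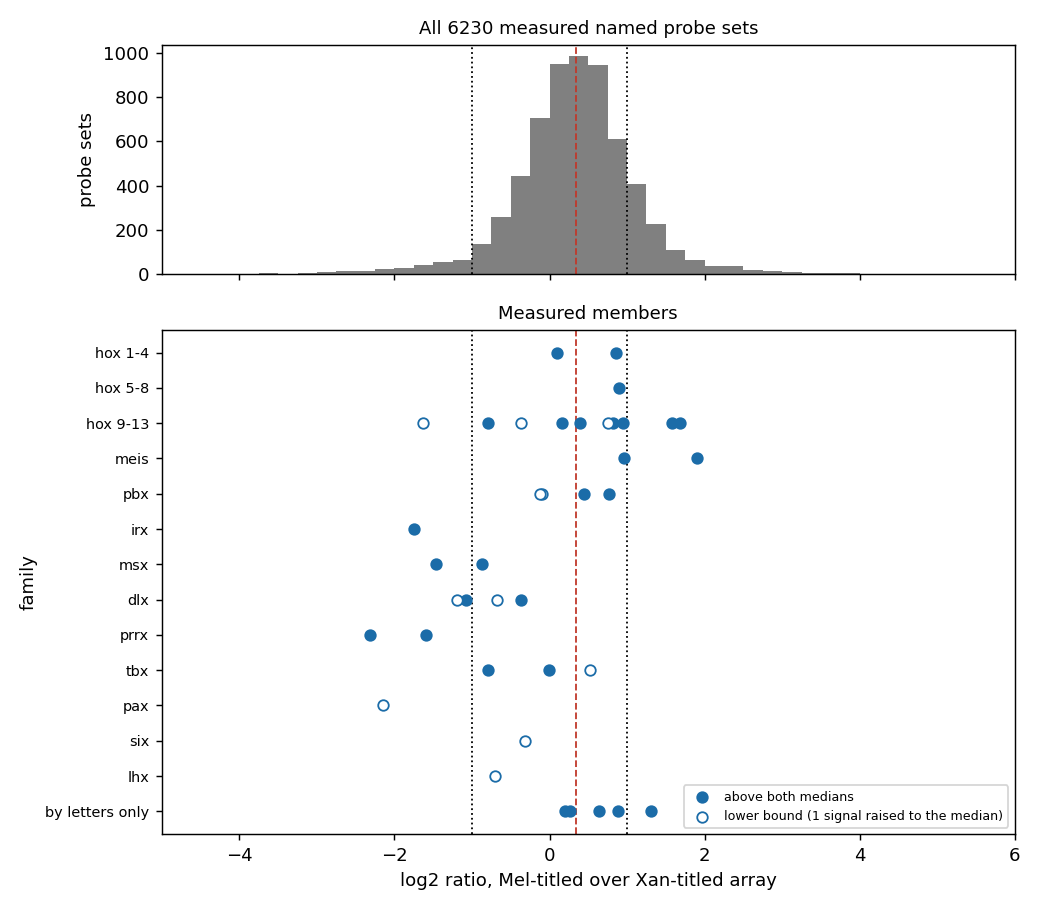
The upper panel is a histogram of log2 ratios, Mel-titled over Xan-titled array, for all 6230 measured named probe sets; the lower panel shows 39 of the 41 measured members by family, filled where both signals exceed the medians and open where the ratio is a lower bound (2 with no direction are left out). Dotted lines mark 2-fold and the dashed line the overall median of 0.34; prrx, irx, msx and dlx points lie left of it and meis right of it.

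The genes taken by letters alone exceeded both medians, and none exceeded the 75th percentile of an array. Signals were 68.4 and 44.0 for paxbp1, 109.0 and 90.9 for paxip1, 210.9 and 85.2 for pbxip1a, 183.2 and 99.0 for pbxip1b and 83.0 and 72.3 for tbxas1 on the Mel-titled and Xan-titled arrays. Of these pbxip1a stood at 2.48-fold, and, scaled to the spike-ins, at 1.90-fold.

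Signals that pattern fins were read from a list of 62 other genes, of which 45 had a probe set and 29 were measured. The list was chosen with earlier results of these data known, so its shares only describe it. Taking 1 probe set a gene, 4 were 2-fold or more brighter on the Mel-titled array (15.5% of all 5502 measured named genes were) and 8 on the Xan-titled array (4.09%), with a median log2 ratio of -0.15 against 0.36 for all measured genes. Of the 8, evx1, and1, bmp4 and fgf10a exceeded only the median of the Xan-titled array, so they could point only that way. Of the 29, 9 exceeded only that median and 0 only that of the Mel-titled array. Over the 5502 genes these numbers were 380 and 369, so the list's balance rests in part on which median was exceeded. The Hedgehog ligands shha, shhb and ihha and the target gli1 lay under both medians, as did fgf8a, fgf24, wnt5b and wnt10a.

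Retinoic acid sets position along fins and acts upstream of hox genes, and its genes were split. The binding protein gene crabp2b had 1991.5 on the Mel-titled and 598.7 on the Xan-titled array (3.33-fold), and the receptor raraa 320.5 and 137.8 (2.33-fold). Within 2-fold, crabp2a (230.5 and 148.8) stood the same way. The receptors rarga (167.0 and 268.1) and rarab (57.9 and 79.9) stood towards the Xan-titled array, also within 2-fold. The retinol carrier rbp4 had 1031.8 and 3267.4, 3.17-fold towards the Xan-titled array. The degrading enzyme cyp26b1 had 481.8 and 814.1, and the synthesising enzyme aldh1a2 45.7 and 52.2.

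The other list genes at 2-fold or more towards the Xan-titled array were bmp2b, evx1, and1, bmp4, fgf10a, fgfr4 and zic2a. The BMP ligand bmp2b had 47.6 on the Mel-titled and 239.5 on the Xan-titled array (5.03-fold). The homeobox gene evx1, which zebrafish need for joints in fin rays, had 30.1 and 214.3, at least 4.54-fold. The structural gene and1 of actinotrichia, the fibres at the fin edge, had 38.7 and 153.4, at least 3.25-fold. The ligand bmp4 (44.0 and 118.0) and the limb ligand fgf10a (30.9 and 95.6) differed by at least 2.50-fold and 2.03-fold. The receptor fgfr4 (61.9 and 545.2) and the transcription factor zic2a (71.4 and 606) stood 8.81-fold and 8.49-fold the same way. Towards the Mel-titled array, the Wnt effector lef1 stood at 476.8 against 71.0 (6.72-fold) and the activin subunit inhbaa at 627.1 against 232.4 (2.70-fold). The Mel-titled signals of bmp2b, fgfr4 and zic2a lay under the 65th percentile of that array (117.9). The Xan-titled signal of lef1 lay under that of its array (93.5). Other floors and scalings were not tried for list genes, so these folds have no such check.

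**Figure D5:**
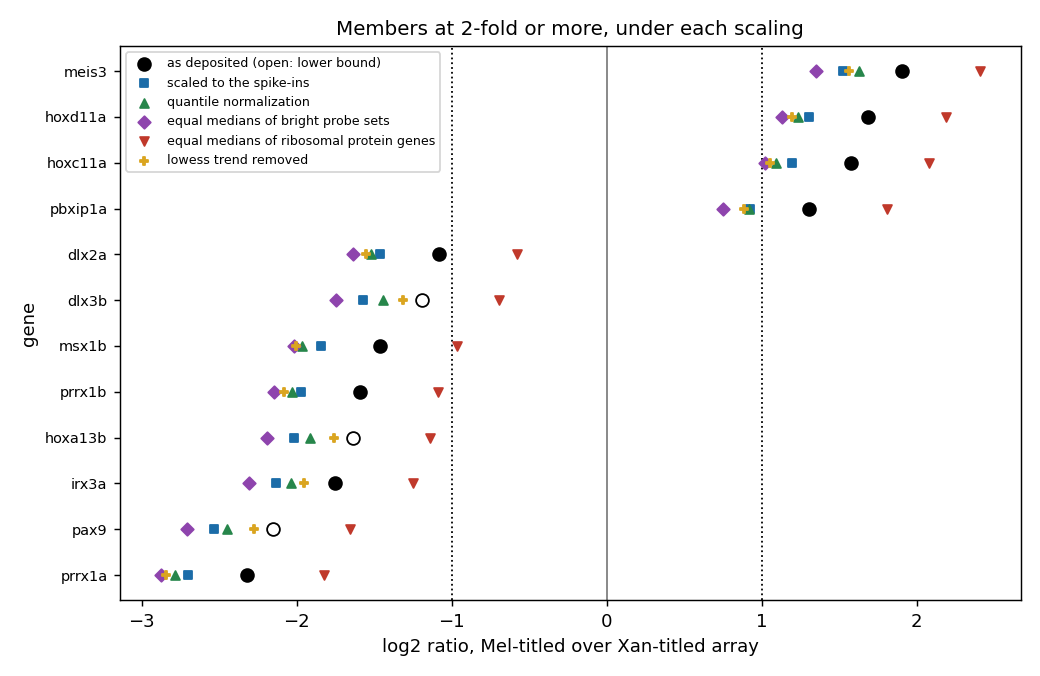
Log2 ratios (Mel-titled over Xan-titled array) of the 12 members at 2-fold or more, as deposited (black, open for a lower bound) and under 5 other scalings (coloured markers); dotted lines mark 2-fold. No gene changes side, and prrx1a, pax9, irx3a, hoxa13b, prrx1b, meis3, hoxd11a and the brightest probe set of hoxc11a stay past 2-fold under all 5.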

How the data were processed

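Intensities are the authors' deposited MAS 5.0 signals (linear scale), per the labels' protocols and the submitters' processing notes, for 15617 probe sets, of which 115 are controls; the sources used here do not give the scaling target, and no detection calls were read. Both columns were used as deposited. With 1 array per preparation, the number of arrays limits the precision. Samples were grouped by title.

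Gene symbols are those of the platform annotation: 10795 had 1 symbol, 135 several (not named) and 4572 are unnamed here. All 130 member genes matched RefSeq by gene ID with no change of symbol; no sequence was used, and RefSeq coordinates served only to order genes. Log2 ratios were computed in Python 3.11.15 with signals raised to each array's median. For lists, a gene took its probe set with the highest mean log2 signal. Every measured member is named, as are fin patterning genes at 2-fold. The ratio step was tested on simulated data. Alternatives were other scalings, floors, filters, probe set choices and fold sizes. The members and lists were chosen with earlier results of these data known.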

Additional observations from a re-analysis of the deposited data

How the results depend on the processing

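No paired analysis was possible because each group has 1 array, and no array could be left out. Members 2-fold or more brighter on the Xan-titled array, 8 as deposited, numbered 13 with spike-in scaling, with equal bright medians and with no floor, 5 with ribosomal protein genes set equal and with the filter at the 75th percentile, 17 and 4 with floors at the 25th and 65th percentiles, 2 at 4-fold and 13 at 1.5-fold. On the Mel-titled array, 4 became 14 with ribosomal protein genes set equal, 8 with the floor at the 25th percentile, 2 with the filter at the 75th, 0 at 4-fold and 13 at 1.5-fold. The median log2 ratio, 0.05, was -0.50 with equal bright medians, 0.55 with ribosomal protein genes set equal and -0.79 with the 75th percentile filter, which leaves 14 members. With thresholds at the 25th and 65th percentiles, 84 and 17 members exceeded them on the Mel-titled array and 94 and 19 on the Xan-titled array. The ratio of dlx3b turned to 0.13 with the floor at the 65th percentile because its dim signal was raised above the bright one. Floors also moved the values of pax9, hoxa13b and dlx3b, to 6.77-fold, 5.43-fold and 8.04-fold at the 25th percentile. That floor, 13.2 on the Mel-titled array, lies under their signals there, so these are plain ratios to low signals and not bounds. Dropping probe sets with IDs ending in _x_at or _s_at, taking 1 probe set per gene, or, chosen after seeing the data, dropping the letters-only genes kept each count within 1.5 times. Members near the medians are limited by their signal over background.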
